A study of Homo sapiens with 7 samples.

Results

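U937 is a human leukaemia line of monocytic type, and the cells described here are its parental form, named U937 MT and labelled MT_mock. The 3 libraries are all those with this group label and make up 3 of the 7 RNA-seq libraries of the series. This group and the gene lists were chosen with earlier results of these data known. The other libraries belong to a U937 line that expresses the fusion PLZF/RARA, with or without an inhibitor of the histone methyltransferase EZH2, and are not used here. The parental cells do not express PLZF/RARA, received ZnSO4 at 0.1 mM as all libraries of the series did, and had no inhibitor. Whether they carry other fusions was not examined. How long the parental cells were kept in zinc is not given in the sources used here, and a zinc-free culture is not analysed here, so a level in zinc cannot be read as a response to zinc. The cells are an established line grown as a single type, and the labels do not say whether the 3 replicates came from separate cultures, so their spread may be technical in part.

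Myeloid cells arise from stem and progenitor cells under factors such as PU.1 (gene SPI1), C/EBP proteins and GFI1. Promyelocytes fill azurophilic granules with myeloperoxidase and serine proteases, later granulocyte stages make the specific granules with lactoferrin and related proteins, and monocytes gain surface proteins such as CD14 and the receptor CSF1R. Zinc binds the factor MTF1, which acts through metal response elements in the promoters of metallothioneins, small proteins that hold metal ions.

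Of 26364 gene symbols, 11295 (42.8%) were expressed, which here means at least 1 CPM (counts per 1000000 counts of the library) in each of the 3 libraries. A further 10983 symbols (41.7%) were at the floor, with at most 3 counts in every library, and 9144 of them (34.7% of all symbols) had 0 counts in all 3. The remaining 4086 are referred to as low. All symbols include 1902 microRNA genes and 395 small nucleolar RNA genes, of which 4.47% and 2.28% were expressed. The share of 42.8% is therefore a low standard for lists of protein-coding genes, and modest excesses over it carry little weight. The libraries held 13570091 to 14848130 counts and 14727 to 15683 symbols with at least 1 count. A count of 0 allows up to 3 counts, or 0.202 to 0.221 CPM, and this limit covers counting error only. Replicate 3 stood apart from replicates 1 and 2: levels of expressed genes correlated at r = 0.968 between replicates 1 and 2 (log2 CPM, across 11295 genes, which are not independent), and at 0.797 and 0.814 between replicate 3 and each of these. Results are therefore given by replicate, and values after ± are SDs over the 3 libraries. The 4 myeloid genes fixed as markers of these cells, MPO, CD68, CD33 and LYZ, were expressed in all 3 libraries. MPO and CD33 are not particular to monocytes, and the monocyte genes CD14 and CD163 had 0 counts in each library. Of 34 monocyte and macrophage genes, 9 were expressed (26.5%, against 42.8% of all symbols). The 4 markers therefore do not decide whether the label of a monocytic line holds.

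The genes with the highest counts encode metallothioneins and proteins of glycolysis, translation and the cytoskeleton. MT2A, a metallothionein, had 14577, 10237 and 5907 CPM in replicates 1, 2 and 3 (mean 10240 ± 4335, SD, n = 3), which made it the gene with the highest mean CPM, although EEF2 and MPO were above it in replicate 3. ENO1, the glycolytic enzyme enolase, had 6120, 6749 and 5093 CPM (5987 ± 836), and its values lay close together in all 3 libraries. EEF2, the elongation factor that moves the ribosome along mRNA, had 2369, 2448 and 11297 CPM, so its place on this list rested on replicate 3. Next came ACTB (cytoskeletal actin) with 4161, 6425 and 4805 CPM and RPL8, a protein of the large ribosomal subunit, with 5499, 5813 and 3594 CPM. Of the 25 genes with the highest mean CPM, 9 encode ribosomal proteins and 3 encode metallothioneins. The only azurophilic granule gene among them was MPO, and its place rested on replicate 3: without that library its mean was 1671 CPM, below that of each of the other 24 genes.

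**Figure D1:**
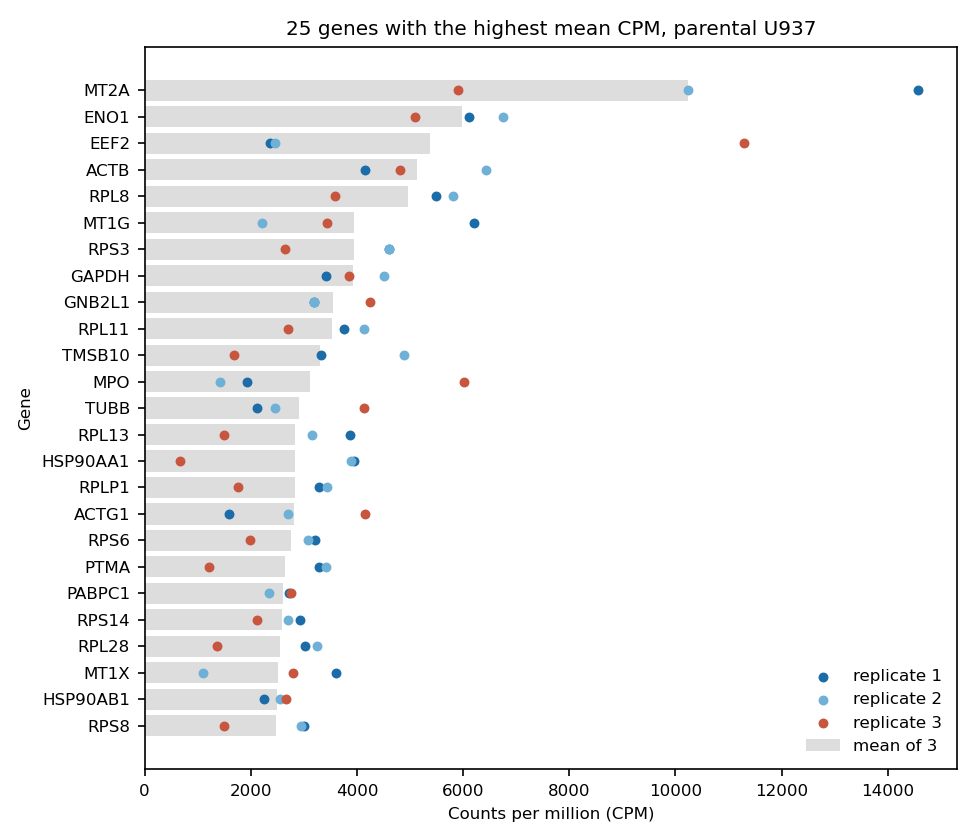
CPM (x axis) of the 25 genes with the highest mean, one row per gene; grey bars are the mean of 3 libraries and points are the replicates. MT2A leads with a mean of 10240 CPM, and EEF2, MPO and HSP90AA1 show replicate 3 far from the other libraries.

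These 25 genes held 9.19% ± 0.721 of all counts (SD, n = 3). The single highest gene held 1.02%, the 100 highest 20.1% and the 1000 highest 53.6%. Among expressed genes the median of the mean level was 34.0 CPM, with quartiles of 12.8 and 80.7. At least 1000 CPM in every library was reached by 55 genes, at least 100 CPM by 1401 and at least 10 CPM by 7689.

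Since longer transcripts give more fragments, levels of different genes are compared per kb: CPM divided by the length in kb of the longest GENCODE transcript, rescaled so that all genes sum to 1000000. Among genes with transcripts of at least 300 bases, MT2A again came first with a level per kb of 30975, 20783 and 16025 in the 3 libraries (22594 ± 7638, n = 3). TMSB10, which encodes the actin-binding protein thymosin beta 10, followed with 13071 ± 4863, and the metallothionein MT1G with 12951 ± 6246. The values of TMSB10 and MT1G overlapped, and the order of these neighbours does not exceed their spread. RPL8 followed with 9609 ± 1000, then RPLP2, MT1E, RPL36, ENO1 with 4787 ± 156, RPS12 and ACTB. With the median instead of the longest transcript length, MT2A stood at 12420, and 6 of these 10 genes remained among the first 10. Without the length limit, 3 genes annotated as microRNA hairpins entered the first 10: MIR6087, at 49 annotated bases, MIR3654 and MIR4426. MIR6087 had 1559, 2465 and 75.3 CPM, low in replicate 3. Reads of longer RNAs that overlap such short genes cannot be told from their own, so their levels per kb are uncertain.

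Metallothioneins as a class took 2.84%, 1.52% and 1.46% of all counts in replicates 1, 2 and 3, summed over 11 genes. MT1G had 6201, 2220 and 3442 CPM (3954 ± 2039), MT1X 3607, 1102 and 2803 CPM and MT1E 2745, 1042 and 1769 CPM. All 3 were highest in replicate 1 and lowest in replicate 2. MT1F had 1207, 564 and 671 CPM. By contrast MT1H had 11.3, 4.71 and 7.81 CPM, MT1A 4.11, 2.01 and 4.57 CPM, MT1M and MT1B had means of 1.17 and 1.14 CPM, and MT3 and MT4, the brain and epithelial forms, had 0 counts in all 3 libraries. The genes of this family are similar in sequence and lie next to each other, so counts of single members are uncertain where the authors' counting could split reads. MTF1, the zinc-sensing factor, had 22.9 ± 2.65 CPM with no wide spread. SLC30A1, the zinc exporter of the plasma membrane and a known target of MTF1, had 6.33, 5.69 and 55.4 CPM, so its level in replicate 3 was apart from both others. Of 14 metallothionein and zinc genes, 10 were expressed (71.4%, against 42.8% of all symbols).

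The promoter of MT2A is shown because this gene had the highest mean CPM of the 3 libraries. The window is the 250 bases before the annotated start, from RefSeq on build GRCh38.p14, chr16:56608334-56608583 on the plus strand, written 5′ to 3′ with the letters of a metal response element core, TGCACNC or TGCGCNC on either strand, in capitals:

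MT2A: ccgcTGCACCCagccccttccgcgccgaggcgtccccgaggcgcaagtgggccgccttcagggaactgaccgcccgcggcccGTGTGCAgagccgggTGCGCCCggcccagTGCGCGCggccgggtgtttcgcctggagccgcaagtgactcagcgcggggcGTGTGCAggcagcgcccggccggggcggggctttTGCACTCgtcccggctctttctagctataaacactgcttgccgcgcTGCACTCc

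The window held 7 matches. At least 1 match was found in 24.8% of 35116 promoter windows of the same length, at least 4 in 0.370% and at least 7 in 0.0313%. Of the other metallothioneins with a promoter in the table, MT1H held 8, MT1X 4, MT1B 3 and MT4 3. MT1H at a mean of 7.92 CPM held more matches than MT1X at 2504 CPM, and MT4 at 0 counts as many as MT1B, so the number of matches did not order the levels. A match is a run of letters and not a site shown to be bound.

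Azurophilic granule genes took 0.577%, 0.467% and 0.902% of all counts in replicates 1, 2 and 3. Of 18 listed, 13 were expressed (72.2%, against 42.8% of all symbols), 1 was low and 4 had 0 counts, and the count of 13 was the same without replicate 3. MPO encodes myeloperoxidase, the oxidant-forming enzyme of these granules, and had 1923, 1420 and 6023 CPM (3122 ± 2525). Replicate 3 was 4.24 times the lowest library, and without it the mean was 1671 CPM. CTSG encodes cathepsin G, a serine protease, and had 1131, 1188 and 931 CPM (1083 ± 135). AZU1 encodes azurocidin, an antimicrobial protein of the same family without protease activity, and had 1269, 744 and 549 CPM (854 ± 373). In level per kb the range of MPO, 810 to 4589, overlapped those of CTSG, 1591 to 1672, and AZU1, 785 to 1422. CTSG was above AZU1 in every library on that scale. The distances between the 3 genes depend on the length used. With the longest transcript the means of MPO, CTSG and AZU1 were 2182, 1620 and 1001. With the median transcript length they were 5630, 809 and 545.

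ELANE, neutrophil elastase, had 305, 88.1 and 111 CPM (168 ± 119), highest in replicate 1. CFD, the complement protease adipsin, had 207, 120 and 30.5 CPM, lowest in replicate 3. RNASE2, an eosinophil granule ribonuclease, had 89.1, 109 and 100.1 CPM, and its relative RNASE3 had 16.1 ± 1.27 CPM. SERPINB1, an inhibitor of neutrophil serine proteases, had 345, 447 and 697 CPM, and CD63, a granule membrane protein, 355, 333 and 292 CPM. SRGN, the proteoglycan that packs granule proteins, had 92.2, 129 and 189 CPM. LYZ, lysozyme, an abundant mRNA of mature monocytes, had only 10.3, 17.6 and 40.2 CPM here (22.7 ± 15.6). BPI, a bactericidal protein, and the defensins DEFA1, DEFA3 and DEFA4 had 0 counts in every library. DEFA1 and DEFA3 are near-identical copies, so their 0 is uncertain where reads matching several places were not counted.

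PRTN3, proteinase 3, was the exception among the serine proteases. It had 13, 11 and 14 counts, or 0.876, 0.763 and 1.03 CPM (0.890 ± 0.135), a low value that was stable over all 3 libraries. Its gene lies between AZU1 and ELANE on chromosome 19 (RefSeq, GRCh38.p14: AZU1 at 827837 to 832018, PRTN3 at 840999 to 848175, ELANE at 852303 to 856243, CFD at 859664 to 863641). All 4 genes of this cluster are protein-coding, and the other 3 were expressed. Per kb, PRTN3 stood at 1.80 ± 0.567, AZU1 at 1001 ± 365, ELANE at 331 ± 214 and CFD at 192 ± 135, and the range of PRTN3 overlapped none of theirs.

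Promoter windows of AZU1 and PRTN3 are shown as neighbours of unlike level, with CTSG as an expressed gene of the same granule and CD14 as a monocyte gene at 0 counts. Capitals mark GAGGAA, the core bound by PU.1, and TTNNGNAA, a pattern of C/EBP sites, on either strand. The windows end at the base before the annotated start, on GRCh38.p14 from RefSeq: AZU1 chr19:827587-827836 (plus), PRTN3 chr19:840749-840998 (plus), CTSG chr14:24576251-24576500 (minus), CD14 chr5:140633176-140633425 (minus).

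AZU1: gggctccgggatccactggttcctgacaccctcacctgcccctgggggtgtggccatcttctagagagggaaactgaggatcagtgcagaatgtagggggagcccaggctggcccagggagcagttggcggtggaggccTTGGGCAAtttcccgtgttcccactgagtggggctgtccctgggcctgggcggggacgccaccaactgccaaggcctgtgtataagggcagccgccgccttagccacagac

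PRTN3: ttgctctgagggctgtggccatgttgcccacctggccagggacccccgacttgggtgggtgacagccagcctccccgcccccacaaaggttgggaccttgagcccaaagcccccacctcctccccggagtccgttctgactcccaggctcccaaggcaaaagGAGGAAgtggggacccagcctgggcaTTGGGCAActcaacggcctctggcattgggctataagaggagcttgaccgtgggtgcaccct

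CTSG: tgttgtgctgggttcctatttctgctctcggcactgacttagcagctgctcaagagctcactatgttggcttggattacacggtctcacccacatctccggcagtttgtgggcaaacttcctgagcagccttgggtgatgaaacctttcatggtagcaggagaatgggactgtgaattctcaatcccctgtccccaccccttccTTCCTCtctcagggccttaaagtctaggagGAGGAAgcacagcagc

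CD14: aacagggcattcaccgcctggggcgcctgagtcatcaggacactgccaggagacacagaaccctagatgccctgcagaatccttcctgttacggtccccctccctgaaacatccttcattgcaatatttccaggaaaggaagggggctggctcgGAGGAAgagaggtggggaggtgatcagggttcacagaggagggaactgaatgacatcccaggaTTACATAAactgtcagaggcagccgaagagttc

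AZU1 held 0 GAGGAA and 1 TTNNGNAA, PRTN3 held 1 of each, CTSG held 2 GAGGAA and 0 TTNNGNAA, and CD14 held 1 of each. In 35116 windows of the same length, GAGGAA occurred in 23.6% and TTNNGNAA in 33.2%. PRTN3 and CD14, the genes near or at the floor, thus held both strings and the expressed genes held 1 of them each. These letters describe the windows and say nothing of binding.

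Genes of the later, specific and gelatinase granules were nearly silent. Of 16 listed, 1 was expressed (6.25%, against 42.8% of all symbols) and 13 were at the floor. Among the latter were LTF (lactoferrin), LCN2 (lipocalin 2), MMP8 (neutrophil collagenase), CHI3L1, ARG1, HP and CD177, all with 0 counts in 3 libraries. The exception was MMP9, gelatinase B, with 7.0, 138 and 40.9 CPM, a gene that monocytic cells also make; its libraries differed by 19.7-fold. CAMP, the precursor of the antimicrobial peptide LL-37, had 0, 6 and 2 counts.

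Monocyte and macrophage genes were split. Of 34 listed, 9 were expressed (26.5%, against 42.8% of all symbols), 9 were low and 16 at the floor. The number expressed was also 9 without replicate 3. CTSD, the lysosomal protease cathepsin D, had the highest mean, with 811, 984 and 1974 CPM. CTSB, cathepsin B, had 173, 268 and 425 CPM, and both were highest in replicate 3. AIF1, an actin-bundling protein of macrophages, had 558, 516 and 147 CPM, lowest in replicate 3. CD4, present on human monocytes as well as T cells, had 216, 194 and 677 CPM. CD68, a lysosomal membrane protein, had 34.3, 35.8 and 63.4 CPM (44.5 ± 16.4), and the protease CTSS 21.7, 26.1 and 84.8 CPM. The Fc receptor FCGR2A had 12.1, 10.7 and 28.8 CPM.

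Many surface receptors in this list were at or near the floor, with CD4 and FCGR2A among the expressed exceptions. Surface receptors of myeloid cells placed in other lists, such as ITGAM, ITGAX, TLR2 and TLR4, were expressed in all 3 libraries. CD14 (the lipopolysaccharide co-receptor), FCGR3A, CD163 and MRC1 (macrophage scavenger and mannose receptors), CCR2 (a chemokine receptor), S100A12, C1QA, VSIG4, LGMN and TREM2 had 0 counts in all 3 libraries. CSF1R, the receptor for the macrophage growth factor CSF1, had 5, 7 and 2 counts. S100A8 and S100A9, calcium-binding proteins that are abundant in mature monocytes, had 0, 7 and 0 counts and 4, 20 and 10 counts. CD86, a costimulatory protein, had 0, 35 and 108 counts, so it was low and not at the floor.

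Broad leukocyte genes were mostly expressed, 25 of 30 (83.3%, against 42.8% of all symbols). LCP1, an actin-bundling protein of blood cells, had 797, 1265 and 2748 CPM. ITGB2, the shared beta chain of leukocyte integrins, had 488, 495 and 1204 CPM, and its partner ITGAM (CD11b) 20.9, 22.9 and 40.2 CPM. PTPRC, the phosphatase CD45, had 66.6, 61.7 and 287 CPM. CD33, a sialic acid-binding receptor of myeloid cells, had 35.2, 17.7 and 43.1 CPM (32.0 ± 13.02). SPN (CD43) ran the other way, with 550, 441 and 102 CPM. Of the 25 expressed members, 20 were higher in replicate 3 than in both other libraries and 4 were lower. Among all 11295 expressed genes these numbers were 5633 and 4436. The adaptors TYROBP and FCER1G, which pass signals from many myeloid receptors, had 7, 0 and 14 counts and 6, 24 and 29 counts. ANPEP (CD13) and LILRB4 had 0 counts throughout.

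Of 35 stem and progenitor genes, 14 were expressed (40%, near the 42.8% of all symbols) and 13 were at the floor, and 14 were expressed without replicate 3. SOX4, a transcription factor of immature cells, had 1585, 2115 and 945 CPM, and MYB, which sustains progenitor growth, 329, 230 and 494 CPM. NPM1, a nucleolar chaperone, had 475, 544 and 862 CPM, and LYL1, a basic helix-loop-helix factor, 552, 382 and 154 CPM. BMI1, a Polycomb protein, had 128, 130 and 884 CPM, so its mean of 380 CPM rested on replicate 3. The homeobox genes HOXA9 (87.1, 125 and 290 CPM), HOXA10 (109, 116 and 392 CPM) and their cofactor gene MEIS1 (43.0, 66.9 and 93.8 CPM) were expressed in every library. Of the 11 genes of the HOXA cluster, 10 were expressed (90.9%, against 42.8% of all symbols) and HOXA2 was low. HOXA11 had 56.3, 65.0 and 266 CPM and HOXA13 9.29, 17.3 and 128 CPM.

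CD34, the surface marker of progenitors, and FLT3, a growth factor receptor of early cells, had 0 counts in all 3 libraries, as did SPINK2, CRHBP, AVP, MSLN and EGFL7. KIT, the stem cell factor receptor, had 4, 10 and 4 counts, and GATA2, a stem cell transcription factor, 6, 5 and 8 counts. CD38, which progenitors gain as they commit, had 3.91, 4.02 and 19.6 CPM. WT1, MECOM and HLF were low, with at most 20 counts in a library.

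Of 52 myeloid transcription factors, 39 were expressed (75%, against 42.8% of all symbols), and 40 without replicate 3. SPI1 (PU.1) had 81.5, 85.9 and 107 CPM (91.5 ± 13.7), and CEBPA, which drives granulocyte and monocyte commitment, 178, 234 and 219 CPM (210 ± 29.1). The highest library was 1.31 times the lowest for SPI1 and 1.32 times for CEBPA, so both were among the steadier genes. CEBPB, a factor of monocyte maturation, had 38.1, 51.6 and 64.2 CPM, and CEBPE, a factor of late granulocyte stages, 28.9, 17.1 and 10.3 CPM. GFI1, a transcriptional repressor that granulocyte development requires, had 98.8, 95.3 and 299 CPM, and FLI1, an ETS factor, 146, 169 and 781 CPM. RUNX1 had 79.5, 188 and 119 CPM and NFE2 95.1 ± 15.5 CPM.

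Several factors known from monocyte and dendritic cells were low. IRF8 had 1, 13 and 7 counts, and IRF4 0, 0 and 4. KLF4 had 14, 41 and 128 counts, while BATF3, a factor of dendritic cells, was expressed at 15.7, 8.04 and 2.95 CPM. CEBPD had 1 count over all libraries and MAF had 0. The genes of the fusion under study elsewhere in the series were unlike each other: ZBTB16, which encodes PLZF, had 4, 0 and 0 counts, and RARA 19.1, 18.1 and 35.0 CPM (24.1 ± 9.48). EZH2, the methyltransferase that the inhibitor targets, had 79.9, 91.2 and 25.9 CPM, lowest in replicate 3, and its relative EZH1 30.0 ± 8.31 CPM.

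Of 38 cytokine and chemoattractant receptors, 21 were expressed (55.3%, against 42.8% of all symbols). IL2RG, the common gamma chain, led with 577, 779 and 1105 CPM. TNFRSF1A, the main receptor for tumour necrosis factor, had 191 ± 32.4 CPM, IL10RB 135 ± 18.2 CPM and the chemokine receptor CXCR4 110 ± 24.7 CPM. CSF3R, the granulocyte growth factor receptor, had 57.3, 19.97 and 118 CPM, and CSF2RB, the shared beta chain for CSF2, IL-3 and IL-5, had 7.48, 7.56 and 26.7 CPM. The alpha chains that pair with it were at or near the floor: CSF2RA had 7, 3 and 0 counts and IL3RA and IL5RA 0 throughout. CSF2RA and IL3RA lie in the pseudoautosomal region, which is present on the X and the Y chromosome. All 18 protein-coding pseudoautosomal genes were counted at a low level, with 2 expressed, 8 low and 8 at the floor. The highest of them was SLC25A6, a mitochondrial ADP/ATP carrier, at a mean of 4.44 CPM, followed by CD99 at 2.90 CPM. Levels of these genes are uncertain, since reads from identical copies may not have been counted. The part of that in their low values was not tested.

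Of the NADPH oxidase, the enzyme of the respiratory burst, 5 of 8 genes were expressed (62.5%, against 42.8% of all symbols). CYBA, the small membrane subunit, had 850, 860 and 252 CPM, and the GTPase gene RAC2 171, 179 and 425 CPM. The catalytic subunit CYBB had 29, 2 and 14 counts. NCF1, a cytosolic subunit that has near-identical pseudogene copies, had 19, 195 and 8 counts. Of 27 pattern recognition genes, 16 were expressed (59.3%, against 42.8% of all symbols). TMEM173 (STING) had 250, 302 and 526 CPM, PYCARD, the inflammasome adaptor, 246, 254 and 156 CPM, and TLR4 6.80, 8.94 and 27.9 CPM. TLR8, TLR10 and CLEC4E had 0 counts.

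Listed genes of other lineages were expressed less often than all symbols (42.8%). None of 19 fibroblast, epithelial and endothelial genes was expressed and 13 were at the floor. KRT8 and KRT18 were at 0, though 50 and 67 pseudogene copies carry their names, so a loss of reads that match several places cannot be told apart from silence. GAPDH, with 62 such copies, was counted at a mean of 3929 CPM. Of 22 erythroid and megakaryocyte genes, 1 was expressed, EPOR (the erythropoietin receptor) at 5.78 ± 1.36 CPM. GATA1, HBB and PF4, which define these lineages, had at most 1 count in any library.

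Of 28 lymphoid genes, 6 were expressed (21.4%, against 42.8% of all symbols). NCAM1 (CD56), found on natural killer cells and on some myeloid leukaemias, had 32.5, 35.3 and 42.8 CPM. CD79A, a B cell receptor chain, had 42.6, 20.6 and 15.3 CPM, while MS4A1 (CD20), CD3D, CD3E, CD3G, CD2, CD7 and LCK had 0 counts. PAX5 and EBF1, B cell factors, had 1.56 ± 0.566 and 2.71 ± 0.251 CPM. Of 15 eosinophil, basophil and mast cell genes, TPSAB1, a mast cell tryptase, was expressed at 206, 51.4 and 40.3 CPM and PRG2, the eosinophil major basic protein, at 9.29, 11.3 and 4.27 CPM. The listed genes CPA3, MS4A2, FCER1A, HDC and CLC had 0 counts. RNASE2 and RNASE3, which encode eosinophil granule proteins, were placed in the azurophilic list and are not among these 15. Both were expressed, at means of 99.4 and 16.1 CPM, so the counts of both lists depend on that placement. Tryptase genes are near-identical, so the split between TPSAB1 and TPSB2 is uncertain. Of 20 dendritic cell genes, 3 were expressed (15%). HLA-DRB1 had 3.77, 41.5 and 9.73 CPM and HLA-DRA 0, 112 and 122 counts, so class II antigen presentation genes were least counted in replicate 1. In bulk RNA, few cells with a high level and many cells with a low level of a gene cannot be told apart.

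All 30 proliferation genes were expressed, against 42.8% of all symbols. TOP2A, a topoisomerase of dividing cells, had 1394, 1180 and 711 CPM and the replication helicase gene MCM7 870, 842 and 490 CPM. MKI67, the marker Ki-67, had 354, 458 and 101 CPM. CDKN2A, which encodes the cell cycle inhibitor p16 and is lost in many leukaemia lines, had 168, 247 and 278 CPM, and CDKN1A, the cell cycle inhibitor p21, 3.50, 14.3 and 3.54 CPM. All 16 housekeeping genes were expressed, with a median coefficient of variation (CV, SD over mean) of 19.6%. TBP, HPRT1 and PPIA were at 20.5 ± 2.41, 123 ± 6.52 and 386 ± 34.4 CPM. EEF1A1, a translation factor with 39 named pseudogene copies, was less even at 581, 404 and 1724 CPM. No symbol of a gene encoded by mitochondrial DNA was among those used, so mitochondrial shares are not analysed here.

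Stability was measured over the 3 libraries. The median CV of expressed genes was 38.5% (quartiles 22.7% and 58.3%), whereas counting error alone gives a median of 4.54%. The highest library was within 1.5-fold of the lowest for 22.5% of expressed genes and within 2-fold for 45.5%. It was more than 4-fold above for 1806 genes (15.99%) and more than 10-fold for 206. Deeply counted genes were little steadier: those with a mean of at least 500 CPM (n = 268) had a median CV of 31.7%, beside 0.918% from counting error. Replicates 1 and 2 were within 2-fold of each other for 93.6% of expressed genes, with a median fold of 1.20. Replicates 1 and 3 were within 2-fold for 54.4% and replicates 2 and 3 for 55.7%. Replicate 3 was the highest library for 5633 genes and the lowest for 4436, together 89.1% of the expressed genes. The common biological coefficient of variation from edgeR was 50.5% over all 3 libraries and 23.3% without replicate 3. No pair agreed within sampling noise: chi-square over its degrees of freedom was 34.3 for replicates 1 and 2, 292 for 1 and 3 and 273 for 2 and 3.

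**Figure D2:**
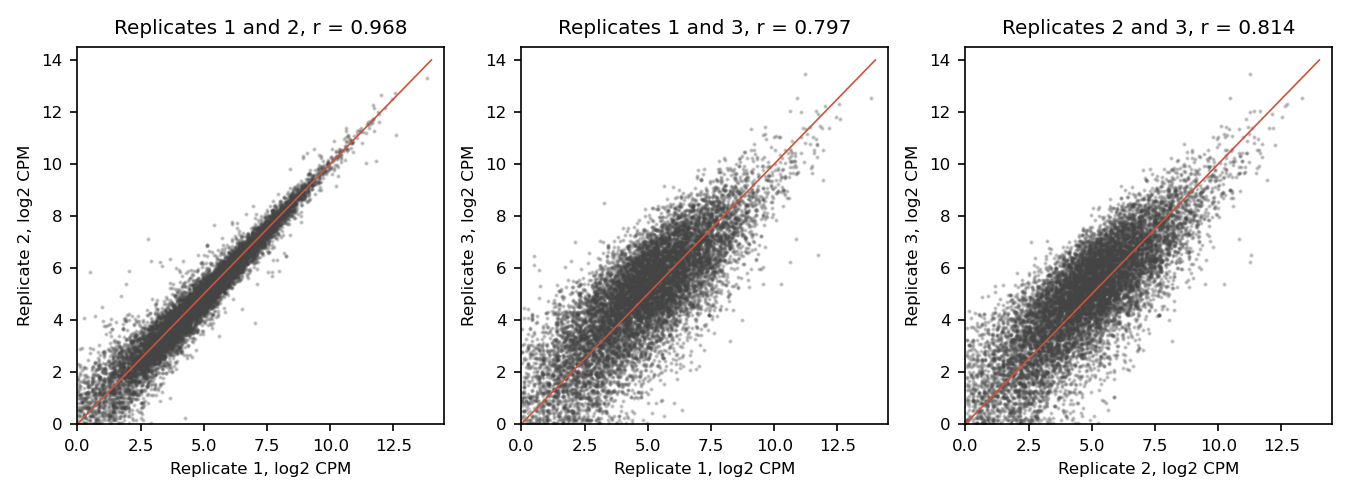
Level of the 11295 expressed genes in each pair of replicates, both axes log2 CPM, one point per gene; the line marks equal levels. Points keep close to the line for replicates 1 and 2 (r = 0.968) and scatter widely where replicate 3 is involved (r = 0.797 and 0.814).

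Among 4269 genes with a mean of at least 50 CPM, the lowest CV was that of FAM136A, a mitochondrial protein gene, at 87.7, 87.5 and 88.1 CPM (CV 0.371%). It was followed by MLLT1, a chromatin reader, at 133, 135 and 136 CPM, then RSRC2, HIGD2A, DAXX, AGAP3, LONP2, TMCO1, PSMD8 and GIGYF2, all with a CV of at most 1.27%. These are the lowest of many values from 3 libraries and are given as levels only. Among the 25 highest genes, PABPC1, the poly(A)-binding protein, and HSP90AB1, a chaperone, had the lowest CVs, 8.83% and 8.85%, at 2609 ± 230 and 2489 ± 220 CPM.

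By the ratio of the highest to the lowest library, most of the 10 least steady genes with a mean of at least 50 CPM were lowest in replicate 3. MALAT1, a long non-coding RNA kept in the nucleus, had 3415, 2501 and 91.0 CPM, a 37.5-fold range. LUC7L3, a splicing factor, had 1242, 1198 and 42.2 CPM, and CLSPN, the checkpoint protein claspin, 309, 285 and 9.06 CPM. CDK5RAP3 had 423, 269 and 16.2 CPM, and ATAD3B, PIDD1 and ANKRD30BL were likewise lowest in replicate 3. By CV, some genes high in replicate 3 were less even than these: PPTC7, a phosphatase gene picked after its values were seen, had 8.76, 9.43 and 132 CPM (CV 142%), beside a CV of 85.8% for MALAT1. HSP90AA1, the inducible HSP90 chaperone, had 3948, 3896 and 668 CPM. The others among the 10 with the widest range were EGR1, TNFAIP3 and MIR6087. TNFAIP3, an inhibitor of NF-kappaB signalling, had 9.70, 76.2 and 364 CPM. EGR1, an immediate early transcription factor, had 78, 2172 and 0 counts.

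The distance of replicate 3 ran with gene class, transcript length and base composition. The median log2 difference between replicate 3 and the mean of the others was 0.18 over all expressed genes. It was -0.79 for 82 ribosomal protein genes, -0.65 for 80 oxidative phosphorylation genes and -0.53 for 37 proteasome genes. Of the ribosomal protein genes, 70 were lower in replicate 3 than in both others, as were 4436 of all 11295 expressed genes. The median was 1.26 for 10 HOXA genes, 0.98 for 9 monocyte and macrophage genes and 0.89 for 14 stem and progenitor genes. For 25 broad leukocyte genes it was 0.88 and for 39 transcription factors 0.71. For azurophilic granule genes it was 0.02. Ribosomal protein genes thereby took 10.7%, 10.8% and 6.58% of counts. Expressed genes were split into 5 equal bins by transcript length and again by GC content. The median went from -0.48 in the bin of the shortest transcripts to 0.68 in that of the longest, and from 0.63 at the lowest GC content to -0.45 at the highest. Between replicates 2 and 1 the medians of the same bins stayed within -0.10 and 0.03. The part of length and GC content in the gene values of replicate 3 was not tested.

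**Figure D3:**
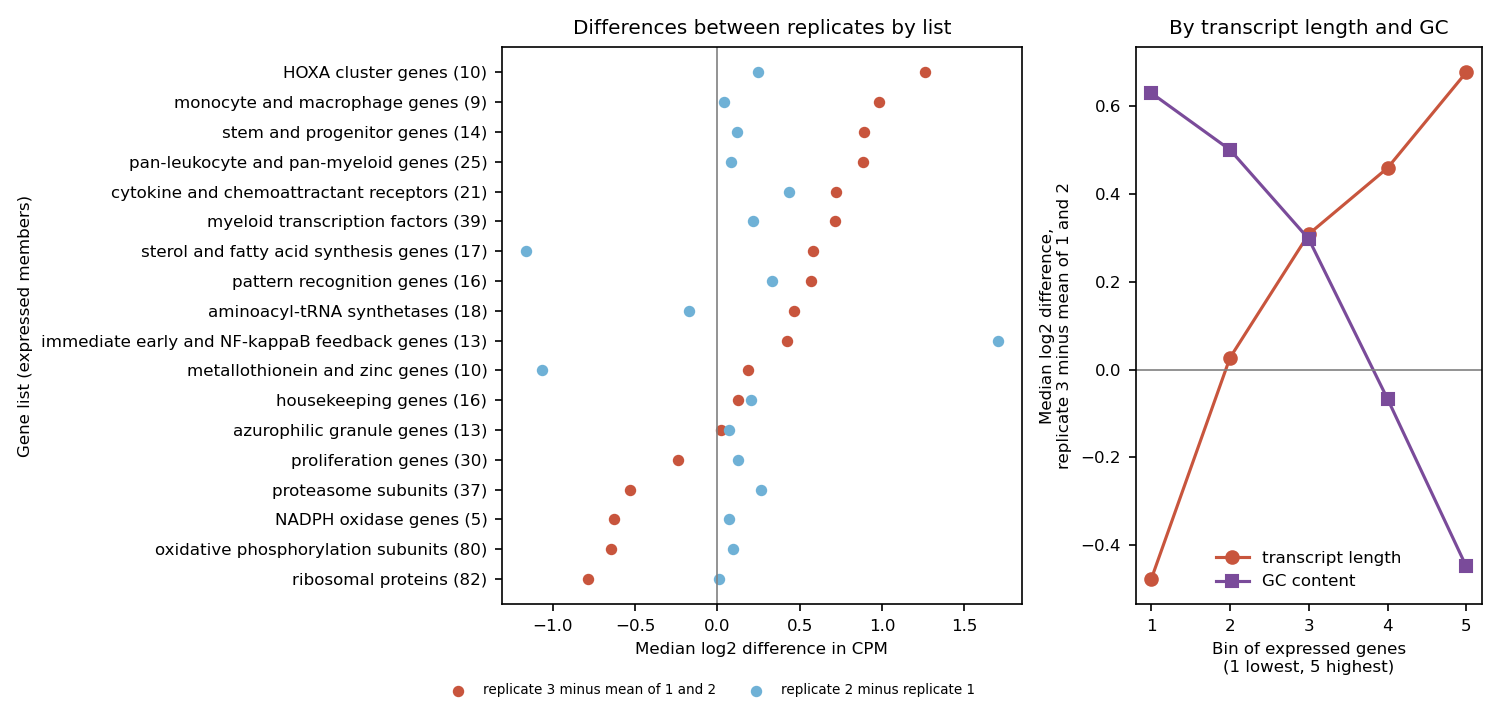
Left, median log2 difference in CPM of expressed list members (number in brackets) for replicate 3 against the mean of replicates 1 and 2, and for replicate 2 against replicate 1; right, the first of these by 5 equal bins of transcript length and of GC content. Ribosomal protein genes sit at -0.79 and HOXA genes at 1.26, and the median goes from -0.48 to 0.68 with length and from 0.63 to -0.45 with GC.

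Replicates 1 and 2, though closest to each other, differed in a few groups that were picked after their values were seen. All 17 expressed genes of sterol and fatty acid synthesis were lower in replicate 2 (median log2 difference -1.17, against -0.03 for all expressed genes). Among all 11295 expressed genes, 6031 were lower and 5264 higher in replicate 2 than in replicate 1. FADS2, a fatty acid desaturase, had 250, 58.5 and 217 CPM and INSIG1, a sterol-regulated protein, 210, 58.2 and 190 CPM. FASN, fatty acid synthase, had 287, 96.2 and 243 CPM. In this group replicate 3 was near replicate 1. Of immediate early and NF-kappaB feedback genes, 13 of 13 expressed were higher in replicate 2 than in replicate 1 (median 1.71), among them PIM1, a kinase, with 42.2, 199 and 338 CPM and NFKBIA, an NF-kappaB inhibitor, with 27.5, 89.9 and 110.2 CPM. Of the 10 expressed metallothionein and zinc genes, 9 were lower in replicate 2 (median -1.06). ELANE and TPSAB1 were also among the 10 genes with the largest difference in this direction, at 305 and 88.1 CPM and at 206 and 51.4 CPM in replicates 1 and 2.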

How the data were processed

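RNA was measured in parental U937 cells in 3 libraries, grouped by sample title. Per the labels' protocols, total RNA was made into cDNA with a SMART-Seq v3 kit, which primes at poly(A) tails, and the cDNA was sheared and made into libraries with a NEBNext Ultra DNA kit. The tools FastQC, Subread and featureCounts and the build hg19 are named, per the submitters' processing notes. Their versions, the annotation and the treatment of reads that match several places were not given in the sources used here. Raw counts, as deposited by the authors, were whole numbers for each symbol, and 2 further tables were not used. No molecular identifiers are named, so floors cover counting error only. The kit does not mark strand, so overlapping genes on opposite strands cannot be told apart. In addition, 28 symbols in 13 groups had identical counts in all 3 libraries (of 11332 with at least 100 counts in all).

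CPM were counts scaled to the library total, which lay between 13570091 and 14848130, with pandas 2.3.3 in Python 3.11.15. Transcript lengths and GC content came from GENCODE 29, a later build used only by symbol, and matched 98.0% of expressed genes. Promoters came from RefSeq's GRCh38.p14 table, which held 296 of 422 listed genes. The common biological coefficient of variation was computed with edgeR 4.0.16 in R 4.3.3, and the procedure was tested on simulated data. There is 1 group, so no test between groups was made. Alternatives were edgeR's TMM and DESeq2 1.42.0 size factors, other CPM limits, another transcript length and leaving out each replicate.

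The libraries and gene lists were chosen with earlier results of these data known. Named genes were the 25 highest by CPM, the 10 highest per kb, list members (chiefly the 5 highest and those at the floor), the 10 most and least even with a mean of at least 50 CPM, and MPO, LYZ, CD68, CD33, ZBTB16, RARA and EZH2. The sterol and immediate early lists, the pseudoautosomal genes and the limit of 300 bases were added after values were seen. Some list members are not reported here by name.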

Additional observations from a re-analysis of the deposited data

How the results depend on the processing

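Of 225 recomputed values, 201 stayed within their replicate spread, or within 1.5 times for counts, and 24 moved. Some of the 201 could not move: scaling a whole library leaves the share of the 25 highest genes, the level of MT2A per kb and the genes at the floor unchanged. For single genes the spread includes replicate 3. MPO, at 3122 CPM with all libraries and 1671 CPM without replicate 3, counted as unmoved because its SD was 2525. The number 201 is therefore no measure of how robust the results are. The scaling changed little: with TMM factors and with DESeq2 size factors the median CV was 38.0% in both and the biological coefficient of variation 49.9% in both. Counting every gene with at least 1 count gave a median CV of 54.6% and a biological coefficient of 61.0%, and a limit of 10 CPM gave 34.0% and 45.1%. Leaving out 1 library in turn gave a median CV of 13.4% to 43.0% and a biological coefficient of 23.3% to 58.5%, the lowest of each without replicate 3. The share of the 25 highest genes was 8.92% to 9.93%, the number of expressed genes 11501 to 11872, that of erythroid and megakaryocyte members 1 to 2 and that of dendritic members 3 to 5. At 0.5 CPM, 2 erythroid and megakaryocyte genes were expressed. At 5 CPM the expressed members were 0 erythroid and megakaryocyte, 2 lymphoid, 1 eosinophil, basophil or mast cell, 1 dendritic and 7 immediate early genes. With the median transcript length MT2A stood at 12420 per kb. No paired analysis was possible because there is 1 group and no test. With 3 libraries, of which 1 stands apart, the SD of most genes rests mainly on replicate 3, and values under 0.221 CPM cannot be told from 0.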

Other observations

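Symbols with identical counts in all 3 libraries included MIR1244-1 to MIR1244-4, at 2571, 2907 and 250 counts each, and the pairs MTPN with LUZP6 and SNRPN with SNURF. The members of each of these 2 pairs share a locus, and their counts are therefore not independent values. Identical counts were also found for symbols of separate, similar copies. Examples are H3F3A with H3F3AP4, at 726, 669 and 204 counts, and SMN1 with SMN2, at 27, 23 and 74 counts. Whether reads that match several copies were counted for each copy was not tested.

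Of 1902 microRNA genes in the table, 85 were expressed (4.47%, against 42.8% of all symbols). Their median log2 difference between replicate 3 and the mean of the others was -0.66. Of 395 small nucleolar RNA genes 9 were expressed, and of 73 replication-dependent histone genes 9, RNAs that mostly lack long poly(A) tails. All 9 expressed histone genes were higher in replicate 2 than in replicate 1, as were 5264 of all 11295 expressed genes. The 18 aminoacyl-tRNA synthetase genes, enzymes that charge tRNAs for translation, were all expressed. In replicate 2, 14 of them were lower than in replicate 1, with a median log2 difference of -0.18. Among all 11295 expressed genes 6031 were lower, with a median of -0.03. Heat shock chaperone genes were expressed in 28 of 39 cases (71.8%, against 42.8% of all symbols).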
